A study of Mus musculus with 3 samples.

Results

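The unfolded protein response and the machinery that handles secretory load were followed here as a group of 34 genes, of 32285 genes in the count matrices. The group was set by gene name, from the sensors of the response to the factors that carry a new protein into the endoplasmic reticulum (ER), fold it and remove it when it fails. Measured values played no part in the rule. The 34 symbols matched 35 rows of the matrices, because Ddit3 has a second, overlapping gene model (ENSMUSG00000116429) that held 0 UMIs in all 3 libraries; values of Ddit3 below are those of ENSMUSG00000025408, and reads that both models share may have been lost in counting. The roles were 7 sensors and transcription factors, 12 chaperones and co-chaperones, 4 disulfide isomerases, 7 factors of ER-associated degradation and 4 factors of entry into the ER.

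The study measured RNA in single cells of mouse lung with droplet libraries made from the 3' end of each transcript. One library was labelled Control, one Model and one PD00, and each came from mice aged 3 months. The series title names ovalbumin (OVA), an egg-white protein used to provoke allergic airway inflammation, and PD00, a peptidomimetic; the labels used here do not say whether the PD00 library received ovalbumin, how many animals were pooled, or the doses and times. All 3 libraries carry the same tissue label, healthy lung. With 1 library per group there is no test of any difference between groups: no p-value is given, and every interval below is a 95% interval for counting error only.

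Proteins bound for secretion or for the cell surface are threaded into the ER through the Sec61 channel, freed of their signal peptides, glycosylated and folded by chaperones and disulfide isomerases. When unfolded protein accumulates, the sensors Ern1 (IRE1-alpha), Eif2ak3 (PERK) and Atf6 raise chaperone production through the transcription factors Xbp1, Atf4 and the cleaved form of Atf6 itself, and slow the making of new protein. Antibody-secreting plasma cells and mucus-making airway cells are the textbook users of this pathway in the lung, and Ern2 (IRE1-beta) is a sensor found in mucus-making epithelium.

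The best known DNA element of the response is the ER stress response element (ERSE), the letters CCAAT and CCACG with 9 bases of any kind between them, which ATF6 is known to bind together with NF-Y. RefSeq promoters (GRCm38.p6, from 250 bases before to 50 bases after the start) matched 27 of the 34 genes; Atf6, Ern2, Manf, Hyou1, Derl1, Sec61a1 and Mzb1 were not in that table. Searched on both strands, the ERSE was present in 8 of the 27 genes, against 37 of 27025 genes in the whole table (0.137%). Counted by promoter it was in 39 of 32851 (0.119%). The 8 genes were Calr, Canx, Creld2, Derl3, Dnajc3, Hsp90b1, Hspa5 and Pdia6. They are printed because several of the largest differences below concern these genes; each line gives the window on the strand that reads the element forward, 5′ to 3′, with 5 flanking bases on each side and the fixed bases of the element in capitals.
Hspa5, chr2:34772020-34772048, plus strand: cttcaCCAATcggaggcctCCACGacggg
Hsp90b1, chr10:86705528-86705556, plus strand: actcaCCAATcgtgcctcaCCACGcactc
Hsp90b1, chr10:86705633-86705661, minus strand: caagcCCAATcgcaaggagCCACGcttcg
Creld2, chr15:88819515-88819543, minus strand: gtggaCCAATtgaggctcgCCACGagaag
Pdia6, chr12:17266486-17266514, plus strand: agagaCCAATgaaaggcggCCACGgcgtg
Calr, chr8:84847070-84847098, plus strand: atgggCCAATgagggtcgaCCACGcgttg
Dnajc3, chr14:118937822-118937850, plus strand: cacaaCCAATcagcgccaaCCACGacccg
Canx, chr11:50325795-50325823, minus strand: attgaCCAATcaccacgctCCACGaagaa
Derl3, chr10:75893237-75893265, minus strand: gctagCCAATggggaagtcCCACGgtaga
Herpud1, chr8:94386372-94386392, plus strand: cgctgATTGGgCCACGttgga

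All of these windows lay upstream of the RefSeq start. The distance from the element to the start was 65 bases for Hspa5, 98 for Pdia6, 105 for Dnajc3, 126 for Creld2, 145 for Canx, 156 for Derl3 and 162 for Calr. Hsp90b1, the ER member of the HSP90 family, had a pair of elements, 107 and 212 bases before its start, on opposite strands. In the GENCODE M21 annotation (GRCm38) Hsp90b1 is a protein-coding gene on the minus strand of chromosome 10, from 86690209 to 86705509, so both elements lie outside it. Hspa5, which encodes the chaperone BiP, lies on the plus strand of chromosome 2 from 34771970 to 34777547, and its element falls within that gene model while preceding the RefSeq start. The last line shows the shorter ERSE-II (ATTGG, 1 base of any kind, then CCACG) of Herpud1, 52 bases before its start. ERSE-II was present in Herpud1 and Dnajb11 and in 12 of all genes of the promoter table (0.0444%). The UPRE, TGACGTGG, was in none of the 27 genes and in 193 of all genes of that table (0.714%). The C/EBP-ATF element TTGCATCA was in Herpud1 alone among the 27 and in 279 of all genes (1.03%). A match is a description of these letters, not evidence of binding, and the windows cover only part of each regulatory region.

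After filtering, 9368 Control, 11285 Model and 9373 PD00 cells remained, with 76914274 to 79690635 UMIs per library. Before filtering, between 68 and 80 barcodes of a library also occurred in another library. Classes of cells were gated on marker genes that are not among the 34, and 6.40%, 22.1% and 13.8% of the Control, Model and PD00 cells passed no gate. Plasma cells made up 0.213% of the Control cells, 3.51% of the Model cells and 3.61% of the PD00 cells, and immunoglobulin genes took 0.145%, 3.13% and 3.11% of all UMIs. Gm42418, a gene model that overlaps ribosomal RNA, took a larger share of UMIs in Model than in Control in each of the 4 classes compared in most detail; those shares stand beside the results. Cells of the 3 libraries were not replicates of a group, so all values are sums of UMIs over the cells of a class, as counts per 1000000 UMIs of that sum (CPM).

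Plasma cells held the highest CPM of most of the 34 genes in every library. Among the 17 classes with at least 20 cells, they were highest for 22 genes in Control, 24 in Model and 25 in PD00, and their interval lay clear of the next class for 20, 22 and 24 of these. Mzb1, a co-chaperone of antibody assembly, stood at 3281 CPM in the 20 Control plasma cells, 3247 CPM in the 396 Model cells and 3149 CPM in the 338 PD00 cells. On the scale of all UMIs these levels were close together in the 3 libraries. Immunoglobulin genes took 21.3%, 33.6% and 35.1% of the plasma cell UMIs of Control, Model and PD00. Their larger share lowers the CPM of other genes more in Model and PD00. The closeness and the order of the libraries therefore depend on this scale. Hsp90b1 stood at 6826, 6220 and 6283 CPM, and Manf, a secreted and ER-resident protein that acts with BiP, at 1387, 1334 and 1327 CPM. Of the 16 plasma cell markers, 11 in Control, 12 in Model and 13 in PD00 had a UMI in at least 10% of the gated cells.

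**Figure D1:**
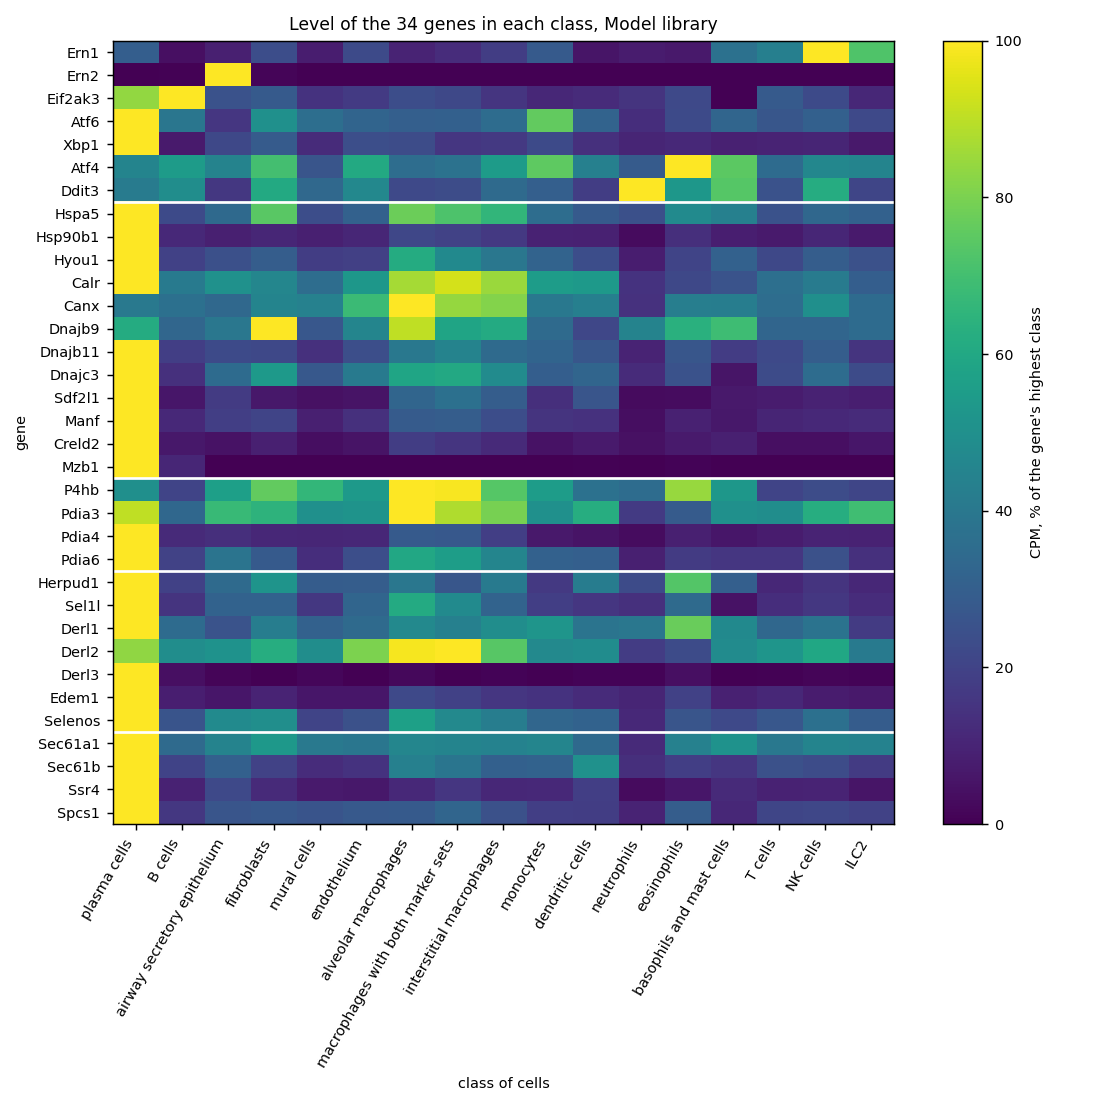
Heat map of the 34 genes (rows, ordered by role, white lines between roles) in the classes of the Model library (columns), each cell giving the CPM as a percentage of that gene's highest class. Plasma cells hold the highest value for 24 of the 34 genes, while Ern2 is highest in airway secretory epithelium and Eif2ak3 in B cells.

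Some other members stood at different levels in the 20 Control plasma cells than in Model and PD00. Hspa5 was at 1425 CPM in Control, 2896 CPM in Model and 2818 CPM in PD00. Creld2, an ER protein induced with the chaperones, was at 259, 639 and 651 CPM. Edem1, which extracts misfolded glycoproteins for degradation, was at 312, 614 and 598.5 CPM, and Sel1l, the scaffold of the HRD1 ubiquitin ligase, at 113, 299.6 and 323 CPM. These 4 genes were all lowest in Control. Pdia3, an isomerase for glycoproteins, ran the other way with 943.5, 531 and 563 CPM, as did the channel subunit Sec61b with 1879, 1236 and 1480 CPM. The Control sum rests on 20 cells, of which 18 had Igha as their leading heavy chain, so no ratio to Control was formed for plasma cells. Xbp1, the transcription factor without which plasma cells do not mature, was at 349.6 CPM in Control, 465 CPM in Model and 524 CPM in PD00.

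Hsp90b1 and Hspa5 were lower in plasma cells that made IgM than in those that made IgG1. These comparisons use CPM of the UMIs of all but the immunoglobulin genes, and a gene counts as higher or lower when the ratio of the summed levels is at least 1.5-fold and the gene has at least 50 UMIs over both sums. Hsp90b1 stood at 5696 in the 30 Model cells with Ighm as leading heavy chain and at 10436 in the 243 Model cells with Ighg1, a ratio of 0.55 (0.52 to 0.57). In PD00, with 82 and 176 cells, it stood at 5694 and 11073, a ratio of 0.51 (0.50 to 0.53). In both libraries the IgM cells had the lower level. Hspa5 gave 2774 against 4695 in Model (ratio 0.59) and 2902 against 4527 in PD00 (0.64), again lower in the IgM cells.

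Of the 33 members measured, 7 were lower and 0 higher in the Model IgM cells than in the IgG1 cells, where 15.8% of all genes were lower and 17.7% higher, with a median log2 ratio of -0.26 for the members and 0.05 for all genes. In PD00, 4 were lower and 1 higher (9.04% and 11% of all genes), with medians of -0.19 and 0.03. The one that was higher was Ddit3, which encodes the stress-induced transcription factor CHOP, at 1.95 (1.48 to 2.56) in PD00 and 1.41 (0.88 to 2.19) in Model. Ssr4, a subunit of the complex beside the Sec61 channel, was lower in the IgM cells of Model (0.61) but level in PD00 (0.99). IgA cells (111 and 69) stood nearer to the IgG1 cells: 2 members were higher and 1 lower in Model, where 8.83% and 6.16% of all genes were, and 0 in either direction in PD00, where 8.33% and 9.31% of all genes were. Ddit3 was among those higher in IgA cells of Model, at 1.93 (1.51 to 2.47), and reached 1.49 (1.08 to 2.04) in PD00. The antibody classes differ in other ways, among them the number of cells, and cells of 1 library are not replicates.

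The remaining genes were highest in other classes. When immunoglobulin genes were taken out of the sum, plasma cells were highest for 26, 27 and 27 of the 34 genes in Control, Model and PD00. Eif2ak3, the PERK kinase, was highest in B cells at 91.3 CPM in Control, 84.4 CPM in Model and 77.2 CPM in PD00, but without immunoglobulin genes plasma cells ranked above them in Model and PD00. Ern1 was highest in ILC2, innate lymphoid cells, in Control (59.6 CPM), and in NK cells in Model (75.6 CPM) and PD00 (107 CPM). Ddit3 was highest in neutrophils, with 111, 115 and 88.15 CPM. Dnajb9, a BiP co-chaperone, was highest in fibroblasts, with 194, 204 and 241 CPM, and the membrane-bound lectin chaperone Canx in alveolar macrophages. Hspa5 was highest in fibroblasts in Control alone, at 2061 CPM. The interval of the highest class overlapped that of the next for Eif2ak3, Ern1 and Ddit3 in every library and for Dnajb9 in Control and Model.

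Over all kept cells together, 14 of the 34 members were higher in Model than in Control and 0 were lower, where 12.3% of all genes were higher and 18.1% lower. The median log2 ratio was 0.53 for the members and -0.13 for all genes. Creld2 was at 28.3 CPM in Control, 119 CPM in Model and 114 CPM in PD00, and Hsp90b1 at 651, 1352 and 1403 CPM. Both were lowest in Control. These sums mix a change in which cells are present with levels inside cells: plasma cells held 3.61% of the Hsp90b1 UMIs and 3.15% of the Creld2 UMIs in Control, but 35.7% and 41.8% in Model and 35.0% and 44.5% in PD00. For Xbp1 the share of UMIs in plasma cells went from 0.955% to 32.2% and 33.6%, while its level over all kept cells was 126, 112 and 122 CPM. The following comparisons are therefore within classes.

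Alveolar macrophages, the resident phagocytes of the air spaces, had higher levels of most chaperones and all 4 isomerases in Model than in Control, and a lower level of Xbp1. The class held 3112 Control, 1192 Model and 1827 PD00 cells, and 11 of its 12 markers had a UMI in at least 10% of the cells in each library. Of 33 members measured, 16 were higher and 1 lower, where 15.3% of all genes were higher and 25.8% lower. The median log2 ratio was 0.58 for the members and -0.21 for all genes. By role, 9 of 12 chaperones (median 1.01) and 4 of 4 isomerases (1.04) were higher, as were 2 of 7 degradation factors (0.47) and 1 of 4 entry factors (0.40), while 0 of 6 sensors and factors were higher and 1 was lower (-0.12).

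Hspa5, the most abundant chaperone of the ER, was at 1074 CPM in Control, 2244 CPM in Model and 1915 CPM in PD00, a Model to Control ratio of 2.09 (2.06 to 2.12). Hsp90b1 followed with 677, 1331 and 1308 CPM and a ratio of 1.97 (1.93 to 1.998). Both were lowest in Control, with Model and PD00 close together. Creld2 was at 28.9, 115.5 and 95.2 CPM, a ratio of 3.99 (3.73 to 4.27). Sdf2l1, a partner of the BiP co-chaperones, was at 42.7, 136 and 107 CPM, a ratio of 3.18 (3.00 to 3.37). Sec61b was at 217, 537 and 527 CPM, a ratio of 2.47 (2.41 to 2.54). In these 3 genes, too, Control was lowest and Model highest.

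All 4 isomerases, which form and rearrange disulfide bonds, were higher. Pdia4 stood at 76.3, 199.7 and 179.9 CPM (ratio 2.62, 2.503 to 2.738) and Pdia6 at 182, 425 and 406 CPM (ratio 2.34, 2.27 to 2.41). Pdia3 stood at 324, 588 and 532 CPM (1.82), and P4hb, also a subunit of the collagen prolyl hydroxylase, at 224, 344 and 338 CPM (1.54). The co-chaperones Dnajc3 (1.94) and Dnajb11 (1.65), Manf (2.05) and the nucleotide exchange factor Hyou1 (2.35) were past 1.5-fold as well. Dnajb9 was just short of it, at 123, 184 and 203 CPM and a ratio of 1.497 (1.44 to 1.56), and the lectin chaperones Calr (1.37) and Canx (1.41) were below it. Edem1 was at 79.7, 135 and 141 CPM (1.70), 1 of the 2 degradation factors past 1.5-fold. Herpud1 (1.39), Sel1l (1.40) and Selenos (1.35) had smaller ratios.

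The sensors and their transcription factors were not higher in Model alveolar macrophages. Xbp1 was at 163 CPM in Control, 108 CPM in Model and 109 CPM in PD00, a ratio of 0.66 (0.63 to 0.69), and Atf4 at 321, 230 and 219 CPM, a ratio of 0.72 (0.69 to 0.74). Both were highest in Control. Atf6 (42.7, 39.2 and 43.2 CPM; ratio 0.92) and Ern1 (8.26, 7.58 and 7.95 CPM; ratio 0.92) were within 1.5-fold, as were Eif2ak3 (17.0, 20.1 and 22.2 CPM; ratio 1.18, 1.05 to 1.33) and Ddit3 (21.4, 25.3 and 25.45 CPM; ratio 1.18, 1.07 to 1.32). Ern2 had 0, 2 and 0 UMIs. The ratio of Xbp1 was no longer past 1.5-fold when libraries were scaled by the median of ratios over genes (0.762) or without Gm42418 (0.694), and kept its direction in both. The 3' counts do not tell the spliced, active Xbp1 transcript from the unspliced one.

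**Figure D2:**
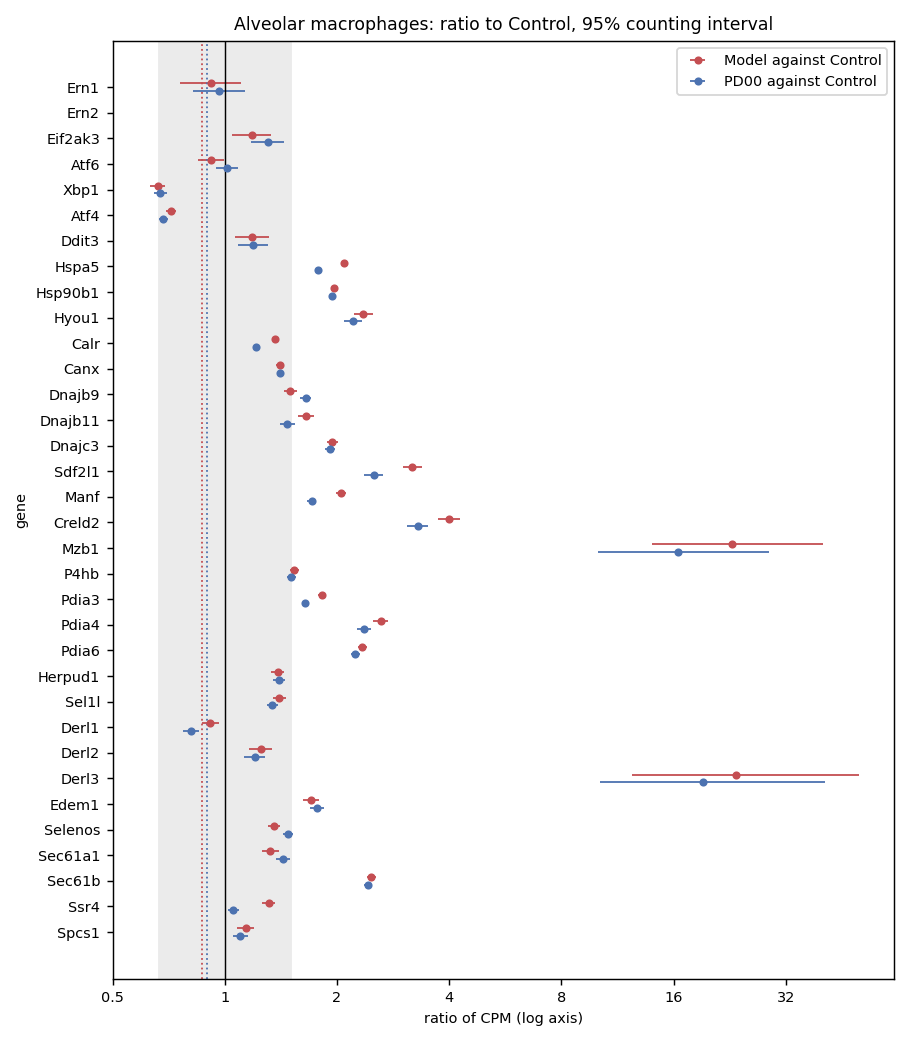
Ratio of CPM in alveolar macrophages for Model over Control (red) and PD00 over Control (blue) on a log axis, one row per member with at least 50 UMIs, with 95% counting intervals; dotted lines give the median of all genes and the grey band spans 1.5-fold in either direction. Chaperones and isomerases lie right of 1 (Hspa5 2.09 for Model), Xbp1 and Atf4 left of it (0.66 and 0.72), and Mzb1 and Derl3 far right at 8.76 and 5.265 CPM in Model.

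Mzb1 and Derl3, a degradation factor of secretory cells, had the largest ratios in alveolar macrophages, at very low levels. Mzb1 had 17, 193 and 209 UMIs (0.3805, 8.76 and 6.27 CPM; ratio 23.0, 14.0 to 40.3), and Derl3 was at 0.224, 5.265 and 4.29 CPM (ratio 23.5, 12.3 to 50.4). Mzb1 was also counted in interstitial macrophages, neutrophils, T cells, monocytes, endothelium, fibroblasts, airway secretory cells and dendritic cells. There it stood at 0 to 2.14 CPM in Control and 5.48 to 14.2 CPM in Model. Model eosinophils held Mzb1 at 29.1 CPM, on 11 UMIs. Whether the Mzb1 level of Model alveolar macrophages is background was not tested. Derl3 was at 0 CPM in Model monocytes and endothelium, 1.04 CPM in T cells and 2.15 CPM in interstitial macrophages. In Model airway secretory cells it was at 3.38 CPM. These levels were below that of Model alveolar macrophages, but Model eosinophils held Derl3 at 10.6 CPM, on 4 UMIs. In Model alveolar macrophages the level of Derl3 was 2.03% of that in Model plasma cells, and that of Mzb1 0.270%. The larger share, that of Derl3, is used next. The same 2.03% of the plasma cell level would give 126.5 of the 1331 CPM of Hsp90b1, 58.9 of the 2244 CPM of Hspa5, 12.998 of the 115.5 CPM of Creld2, 14.4 of the 199.7 CPM of Pdia4 and 25.1 of the 537 CPM of Sec61b. Without Mzb1 and Derl3, 14 members remained higher.

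Other features of these macrophages differed along with the genes. The summed level of the 16 plasma cell markers was 50.4 CPM in Control, 2436 CPM in Model and 2009 CPM in PD00, with 14, 15 and 16 of them detected (Ighg2c at 0 in Control and Model, Ighe in Control). The 10 interstitial macrophage markers summed to 32.3, 337 and 262 CPM. Gm42418 took 5.51%, 10.1% and 8.55% of UMIs, mitochondrial genes 5.34%, 8.01% and 7.53%, and the median cell had 14616.5, 18153.5 and 17520 UMIs. In clusters computed without the 34 genes, 91.0% of the Control macrophages were in cluster 4, while 61.0% of the Model and 70.4% of the PD00 macrophages were in cluster 28. Cluster 4 held 0 Model and 4 PD00 macrophages, and cluster 28 held 2 Control macrophages. Control thus shared almost no macrophages of these clusters with Model or PD00, and a ratio within the class does not hold the cluster fixed. Hspa5 was at 1104 CPM in the Control cells of cluster 4, 2115 CPM in the Model cells of cluster 28 and 1836 CPM in the PD00 cells of cluster 28. What part these features have in the ratios was not tested.

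Other genes of the pathway, 126 in 7 lists, were less uniform in alveolar macrophages. Of 20 ER-to-Golgi transport genes 8 were higher and 0 lower (median log2 ratio 0.47), of 20 further entry genes 5 and 0 (0.35), and of 20 further folding genes 6 and 0 (0.20). Glycosylation genes gave 2 higher and 1 lower of 18 (0.14), further degradation genes 2 and 1 of 17 (0.02), and genes of ATF6 processing 4 and 2 of 10 (-0.07). Against 15.3% of all genes higher and 25.8% lower in this class, the glycosylation and degradation lists held no larger share of higher genes. The PERK and ATF4 arm went the other way, with 1 higher and 10 lower of 17 (-0.74). Phgdh, an enzyme of serine synthesis, was at 133 CPM in Control and 22.3 CPM in Model (ratio 0.17, 0.15 to 0.18). Slc3a2, the heavy chain of amino acid exchangers, was at 301 and 139 CPM (0.46, 0.44 to 0.48). Both were lower in Model. Wfs1, an ER membrane protein, was at 1.365 and 18.8 CPM (13.8, 10.5 to 18.3), and Kdelr3, a receptor that returns ER proteins from the Golgi, had 3 and 47 UMIs (ratio 31.8, 10.2 to 159.6).

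Interstitial macrophages, which lie in the lung tissue itself, had 194 Control, 613 Model and 480 PD00 cells, and all 10 of their markers were present. In Model, 15 of 31 members were higher than in Control and 1 was lower, where 20.5% of all genes were higher and 15.4% lower, with medians of 0.58 and 0.05. Creld2 was at 23.9 CPM in Control, 75.8 CPM in Model and 61.5 CPM in PD00 (Model to Control 3.17, 2.15 to 4.85), and Hyou1 at 23.1, 72.1 and 64.2 CPM (3.13, 2.11 to 4.84). Hsp90b1 was at 571, 1035 and 1094 CPM (1.81, 1.67 to 1.97), and Calr, a soluble lectin chaperone, at 512, 889 and 804 CPM (1.74). All 4 were lowest in Control. Sec61b was at 225, 381 and 395 CPM (1.69). By role, 8 of 11 chaperones, 1 of 4 isomerases (Pdia4, 64.7, 131 and 133 CPM; 2.02, 1.59 to 2.61), 3 of 6 degradation factors and 2 of 4 entry factors were higher.

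Hspa5 itself was within 1.5-fold in interstitial macrophages, at 1390, 1907 and 1750 CPM (1.37). The one member that was lower was Atf6, at 76.3, 45.5 and 45.6 CPM (0.60, 0.47 to 0.77). Xbp1 (97.5, 78.0 and 82.8 CPM; 0.80) and Atf4 (1.02) were within 1.5-fold, and Eif2ak3 was past it on few counts (7.98, 12.9 and 15.3 CPM; 1.62, 0.81 to 3.66). Dnajb9 was at 174, 125 and 127 CPM (0.72), within 1.5-fold. Among other genes of the pathway, 7 of 19 ER-to-Golgi transport genes were higher and 1 lower, as were 4 and 0 of 18 glycosylation genes and 2 and 3 of 14 genes of the PERK and ATF4 arm (median -0.07). The share of all genes that was higher in this class, 20.5%, is close to that of the glycosylation genes, and 15.4% were lower. The oligosaccharyltransferase subunit Rpn1 was at 84.2 CPM in Control and 223 CPM in Model (2.65, 2.15 to 3.29) and the cargo receptor Surf4 at 76.3 and 158 CPM (2.07). The stress genes Atf3 (1484 and 396 CPM; 0.27) and Ppp1r15a (458 and 202 CPM; 0.44), both induced through PERK and by other signals, were lower. Gm42418 took 3.56%, 10.2% and 8.80% of UMIs, and plasma cell markers summed to 299.7, 2050 and 1851 CPM, with 9, 15 and 15 of 16 detected (Jchain, Pou2af1 and 5 immunoglobulin genes at 0 in Control); their part was not tested. Neutrophil markers, at 1354, 331 and 227 CPM, were highest in Control.

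Neutrophils had smaller RNA contents, with a median of 1948 to 2073 UMIs per cell, and 911 Control, 883 Model and 672 PD00 cells. Of 27 members measured 12 were higher and 1 lower in Model than in Control, where 21.2% of all genes were higher and 7.31% lower, with medians of 0.50 and 0.15. Pdia4 was at 4.80 CPM in Control, 23.3 CPM in Model and 15.4 CPM in PD00, a ratio of 4.87 (2.38 to 11.2) that rests on 9 and 52 UMIs. Creld2 was at 6.93, 28.3 and 22.0 CPM (4.08, 2.22 to 8.08), Canx at 33.6, 79.9 and 69.45 CPM (2.38), Pdia6 at 26.6, 62.4 and 46.7 CPM (2.34), and Hsp90b1 at 81.5, 185 and 177 CPM (2.27, 1.88 to 2.75). All 5 were lowest in Control and highest in Model. By role the higher members were 7 of 9 chaperones, 3 of 4 isomerases and 2 of 5 sensors and factors, with 0 of 5 degradation factors and 0 of 4 entry factors.

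Neutrophils of Model had more Xbp1 and Atf4 than those of Control. Xbp1 was at 28.2, 48.0 and 39.4 CPM (1.70, 1.21 to 2.41) and Atf4 at 112, 184 and 178 CPM (1.64, 1.39 to 1.95), both lowest in Control. Eif2ak3 was at 23.45, 12.6 and 16.7 CPM (0.54, 0.32 to 0.88), the one member that was lower. Hspa5 was not higher with its partners: it stood at 816, 702 and 769 CPM (0.86, 0.80 to 0.92). Ddit3 stood at 111, 115 and 88.15 CPM. Of the other pathway genes, the cargo protein Tmed3 (3.23) and the oligosaccharyltransferase subunit Rpn2 (2.53) were higher, and the degradation factor Selenok (845 CPM in Control and 445 CPM in Model; 0.53) and Atf3 (302 and 167 CPM; 0.55) were lower. Derl3 in Model neutrophils, on 6 UMIs, was at 1.04% of its plasma cell level. The same share would give 64.7 of the 185 CPM of Hsp90b1, 6.65 of the 28.3 CPM of Creld2 and 7.36 of the 23.3 CPM of Pdia4 in Model. In PD00 neutrophils Derl3 was at 1.72% of its plasma cell level, on 8 UMIs (5.34 CPM, 2.31 to 10.5). That share would give 108 of the 177 CPM of Hsp90b1, 11.2 of the 22.0 CPM of Creld2 and 13.3 of the 15.4 CPM of Pdia4. Mzb1 stood at a smaller share of its plasma cell level, 0.318% in Model and 0.212% in PD00 neutrophils. The larger share, that of Derl3, was the one used. Plasma cell markers summed to 154.5, 3811 and 3817 CPM in neutrophils of Control, Model and PD00, with 12, 15 and 14 of 16 detected and Ighg2c at 0 throughout. Gm42418 took 3.58%, 5.95% and 4.86% of UMIs. The part of either was not tested.

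Airway secretory cells, the club and goblet cells that line the airways, were few: 45 in Control, 90 in Model and 48 in PD00. The secretoglobin Scgb1a1 alone took 61.0% of their UMIs in Control, 16.7% in Model and 42.2% in PD00. On the scale of all UMIs, 24 of 25 members were higher in Model than in Control and 0 lower, but 75.1% of all genes were higher and 3.24% lower, so that scale says little about the members. Levels in these cells are therefore given as CPM of the UMIs left after taking out the 13 airway marker genes, an alternative chosen after seeing the data. On it 18 of 25 members were higher and 0 lower, where 31.9% of all genes were higher and 20.3% lower, with medians of 0.85 and 0.13. Of these markers 5, 13 and 12 had a UMI in at least 10% of the cells of Control, Model and PD00.

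On that scale Hspa5 was at 447.8 in Control, 1285 in Model and 695.6 in PD00, a Model to Control ratio of 2.87 (2.43 to 3.41). Calr was at 258.4, 689.7 and 410.8 (2.67, 2.14 to 3.37) and Hsp90b1 at 361.7, 711.7 and 470.4 (1.97, 1.62 to 2.40). Each was highest in Model, with PD00 between. Sdf2l1 had 5, 85 and 18 UMIs, a ratio of 6.51 (2.68 to 20.6). Among the factors, Xbp1 had 18, 119 and 43 UMIs (2.53, 1.54 to 4.42), and Atf4 was at 186.6, 371.8 and 209.8 (1.99, 1.52 to 2.64). Both were highest in Model. By role, 9 of 10 chaperones, 4 of 4 isomerases, 2 of 2 factors measured and 2 of 4 entry factors were higher. Of 5 degradation factors 1 was (Sel1l, 2.36). Selenos (0.67, 0.54 to 0.85), Herpud1 (0.75), Sec61b (0.77, 0.66 to 0.91), Derl1 (0.86) and Derl2 (0.89) had ratios below 1 here and above 1 on the scale of all UMIs.

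Ern2, the epithelial IRE1, had UMIs in the airway cells of Model and PD00 and none in those of Control. Airway secretory cells held 0 Ern2 UMIs in Control, 47 in Model and 26 in PD00, or 0, 39.75 and 31.3 CPM of all UMIs. In Control, 3 UMIs in place of 0 would give 3.24 CPM. A UMI of Ern2 was found in 24 of 90 Model cells (26.7%, 17.9 to 37.0) and 10 of 48 PD00 cells (20.8%), against 0 of 2975 Model T cells. The median cell held 7505.5 UMIs in the Model airway class and 4263 in the Model T cells. Over all kept cells Ern2 had 1, 72 and 26 UMIs. On GRCm38 the gene lies on the minus strand of chromosome 7, from 122169893 to 122186207.

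**Figure D3:**
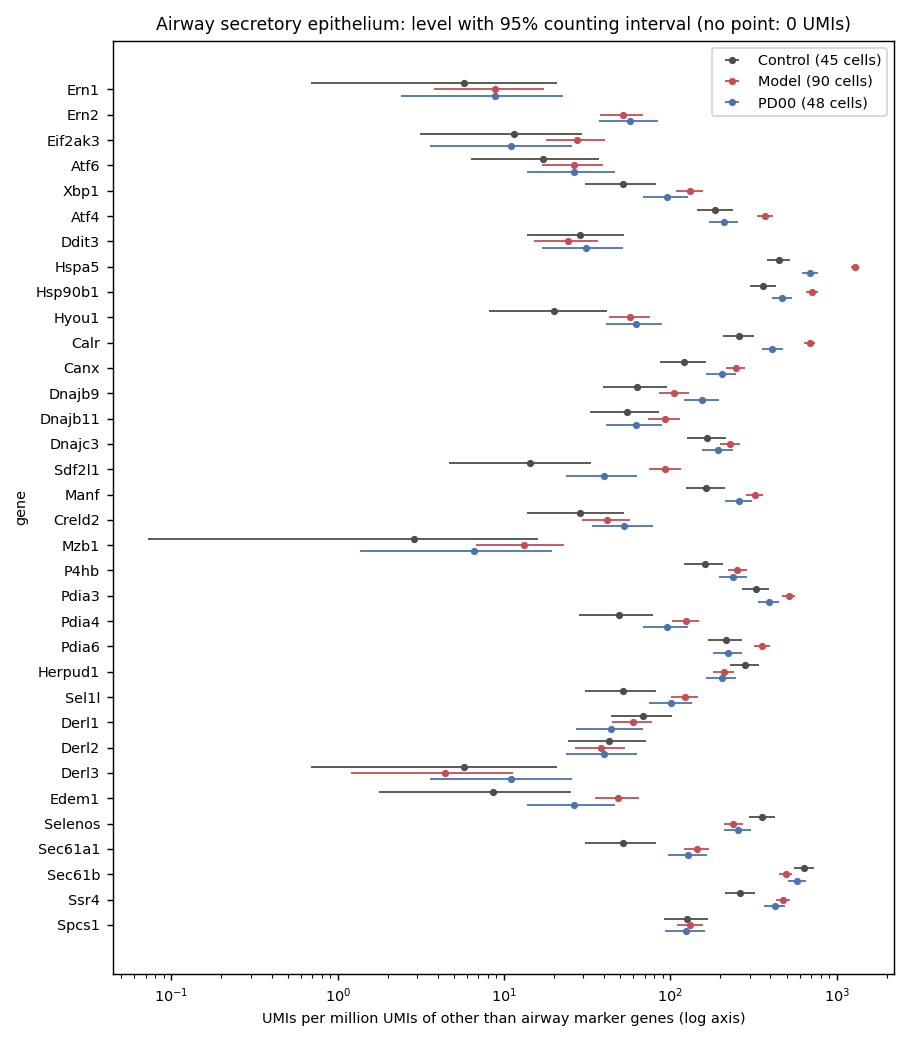
Level of each member in airway secretory cells, as CPM without the airway marker genes (log axis), for Control (45 cells, grey), Model (90 cells, red) and PD00 (48 cells, blue) with 95% counting intervals; no point is drawn for 0 UMIs. Hspa5 is at 447.8, 1285 and 695.6, and Ern2 has points for Model and PD00 but none for Control.

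Clca1, a secreted marker of goblet cells, was used to divide the airway class. Cells with at least 1% of their UMIs from Clca1 numbered 0 of 45 in Control, 70 of 90 in Model and 29 of 48 in PD00. Ern2 was at 62.2 and 24.0 CPM on that scale in the Model cells above and below that limit and at 102 and 0 in the PD00 cells, higher above it in both libraries. The chaperones did not follow one order. In PD00, Hspa5 was at 977 above the limit and 330 below it (2.96, 2.25 to 3.95), and 11 of 17 members were higher and 0 lower above it, where 35.6% of all genes were higher and 11.3% lower; the members' median was 0.96, that of all genes 0.33. In Model, Hspa5 was at 1073 above and 1844 below (0.58), and 2 of 24 members were higher and 6 lower, where 12.4% and 26.2% of all genes were. Dnajb9 stood at 238 above and 45.7 below in PD00 (5.22, 2.58 to 11.95), but at 105 and 108 in Model.

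The cells below the Clca1 limit were unlike between libraries, with 20 cells in Model, where Scgb1a1 took 3.55% of UMIs, and 19 in PD00, where it took 52.9%. Markers of other cells were also higher in the Model airway class: plasma cell markers summed to 174, 1989 and 1243 CPM in Control, Model and PD00, those of alveolar macrophages to 134, 699 and 169.8 CPM, and those of neutrophils to 128, 1402 and 826 CPM. Of the 16 plasma cell markers 9, 14 and 10 were detected, with Tnfrsf17 at 0 in all 3 libraries. Of the 12 alveolar macrophage markers 9, 11 and 9 were detected, with Marco at 0 in all 3. Gm42418 took 2.11%, 9.10% and 5.42% of UMIs. Their part in the ratios was not tested. Of other pathway genes in Model against Control, 6 of 12 in the PERK and ATF4 arm were higher and 0 lower (median 0.67), led by the cystine transporter Slc7a11 (2 and 72 UMIs; 13.8, 3.68 to 116) and the stress factor Atf3 (152 and 709 CPM on that scale; 4.66, 3.52 to 6.29). ER-to-Golgi transport genes gave 6 higher and 0 lower of 16, a share of higher genes near the 31.9% of all genes. Dpm3, a subunit of the enzyme that makes the mannose donor (0.36), and Srp14 of the signal recognition particle (0.57) were lower.

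Model was set against Control in 6 further classes, and the other classes were not compared. In monocytes 4 of 29 members were higher and 2 lower (10.3% and 6.26% of all genes), in dendritic cells 4 and 1 of 29 (21.9% and 9.2%), in T cells 5 and 0 of 32 (20.6% and 8.18%), and in B cells 4 and 0 of 32 (13.5% and 8.53%). In endothelium 0 were higher and 2 lower of 31 (4.99% and 10.3%), and in fibroblasts 3 and 0 of 31 (7.92% and 16.4%). The median log2 ratio of the members lay between -0.10 and 0.31 in these 6 classes. The members' share of higher genes was below that of all genes in 4 of these classes and slightly above it in monocytes and fibroblasts.

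Single members in those classes nevertheless had clear ratios. In T cells Ern1 was at 13.5 CPM in Control, 32.5 CPM in Model and 29.6 CPM in PD00 (2.41, 1.96 to 2.98), and Atf6 at 19.3, 34.5 and 29.1 CPM (1.79). Both sensors were lowest in Control; 69.3% of the Control T cells were in cluster 10, while cluster 16 held the largest part in Model (35.5%) and PD00 (46.4%). In B cells Pdia4 was at 44.1, 83.8 and 76.0 CPM (1.90). In dendritic cells Edem1 was at 35.3, 74.6 and 79.4 CPM (2.11) and Xbp1 at 33.1, 63.7 and 50.6 CPM (1.92), while Herpud1 was at 312, 195 and 178 CPM (0.63). In monocytes Ddit3 was at 62.7, 34.8 and 32.9 CPM (0.55) and Ssr4 at 321, 194 and 213 CPM (0.60), both highest in Control. In fibroblasts Hyou1 was at 30.1, 53.2 and 74.5 CPM (1.77), and in endothelium Dnajb9 was at 139, 92.5 and 117 CPM (0.67).

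**Figure D4:**
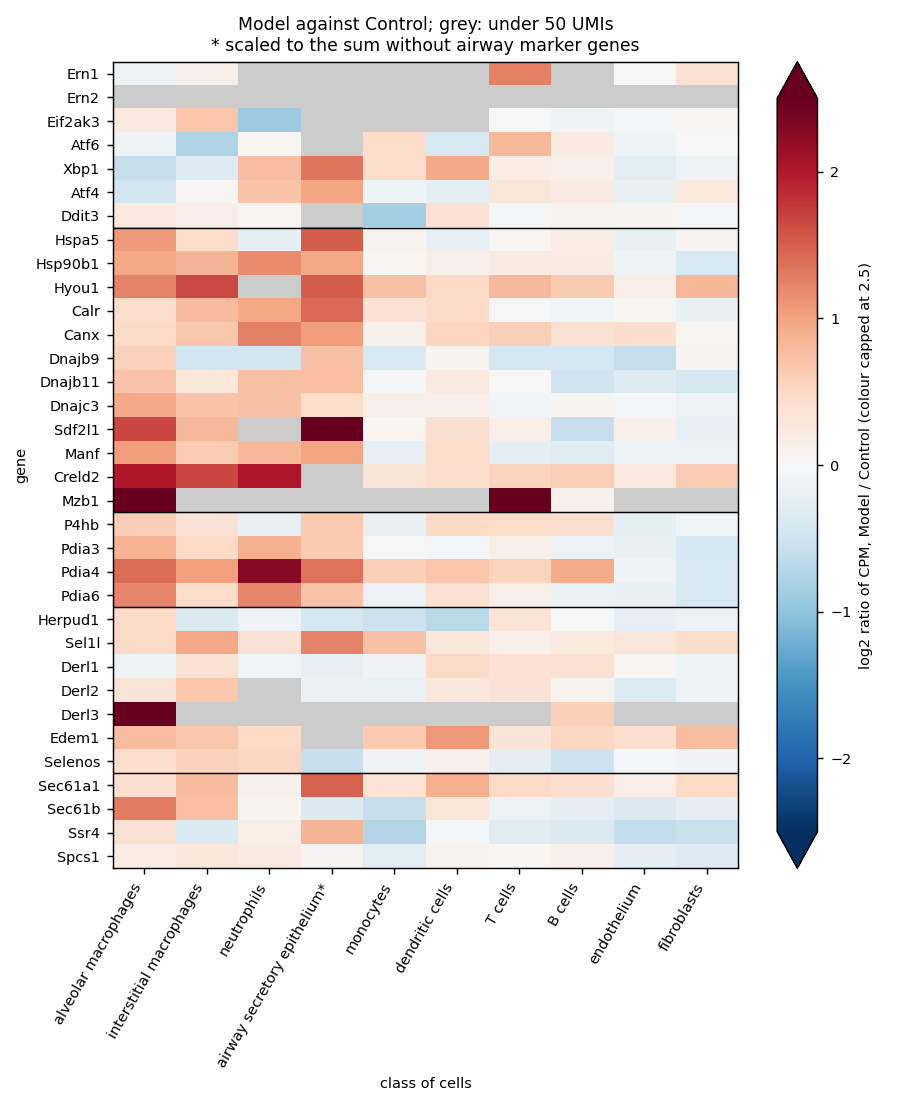
Heat map of the log2 ratio of CPM, Model over Control, for the 34 genes (rows by role) in 10 classes (columns); red is higher in Model, blue lower, grey marks under 50 UMIs over both sums, and the airway column is scaled without the airway marker genes. Red is concentrated in the chaperone and isomerase rows of alveolar macrophages, interstitial macrophages, neutrophils and airway cells, while Xbp1 is blue in alveolar macrophages (ratio 0.66) and red in airway cells (2.53).

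The genes whose promoter window held an ERSE had the larger median ratios in the 4 classes with most differences. In alveolar macrophages 6 of 8 such genes were higher in Model (median log2 ratio 1.02), against 7 of 19 promoter-matched genes without it (0.47). Derl3, which passed the 50-UMI minimum only through Model, is among the 6; without it 5 of 7 were higher (0.98). In interstitial macrophages the counts were 5 of 7 (0.71) and 7 of 19 (0.37), in neutrophils 6 of 7 (1.18) and 5 of 16 (0.29), and in airway cells without the marker genes 5 of 6 (1.01) and 10 of 15 (0.74). The 50-UMI minimum is taken over both sums, so other genes can also pass it through Model alone. Creld2 did so in neutrophils, at 6.93 CPM in Control and 28.3 CPM in Model, and is among the 6 there. Counts without such genes were not made outside alveolar macrophages. The element is shown above for each of the 8 genes. Pdia4, Sdf2l1 and Sec61b had no match and were also among the genes with the largest ratios in alveolar macrophages, so the division is not sharp. It also overlaps the division by role. Calr, Canx, Creld2, Dnajc3, Hsp90b1 and Hspa5 are chaperones or co-chaperones and Pdia6 is an isomerase, while no sensor or transcription factor had a match. Element and role cannot be told apart here.

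In macrophages and plasma cells no member was 1.5-fold higher or lower in PD00 than in Model. In plasma cells 0 of 33 members were higher and 0 lower, where 4.23% of all genes were higher and 6.96% lower; the ratios ran from 0.82 for Derl2 to 1.32 for Ern1. In alveolar macrophages 0 of 33 were past 1.5-fold in either direction (2.79% of all genes higher, 4.51% lower), and in interstitial macrophages 0 of 32 (2.73% and 3.63%). In neutrophils 0 of 27 were higher and 1 lower (5.29% and 5.6%): Pdia4, at 0.66 (0.38 to 1.09). Small ratios below 1 were common among the chaperones of alveolar macrophages, with Hspa5 at 0.85, Sdf2l1 at 0.79 (0.75 to 0.83), Creld2 at 0.82 (0.78 to 0.87) and Manf at 0.83; the interval lay below 1 for 16 members and above 1 for 4. The members' median was -0.05 and that of all genes 0.04.

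In airway secretory cells the share of members that was lower in PD00 than in Model was near that of all genes. On the scale without the airway marker genes, 0 of 28 members were higher and 7 lower in PD00, where 8.05% of all genes were higher and 21.6% lower, with medians of -0.28 and -0.12. The 7 were Atf4 (0.56, 0.44 to 0.71), Hspa5 (0.54, 0.48 to 0.61), Hsp90b1 (0.66, 0.56 to 0.77), Calr (0.60, 0.50 to 0.70), Sdf2l1 (0.43, 0.24 to 0.71), Pdia6 (0.62) and Edem1 (0.55, 0.26 to 1.05). The interval of Edem1 held 1, and 5 members were lower with median-of-ratios scaling. Dnajb9 had a ratio of 1.46 (1.06 to 2.01) and Ern2 stood at 51.7 and 57.4 CPM in Model and PD00. On the scale of all UMIs 19 of 28 members were lower, but so were 52.3% of all genes. The class holds 48 PD00 cells, and the share of cells above the Clca1 limit differed between the libraries as given above.

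**Figure D5:**
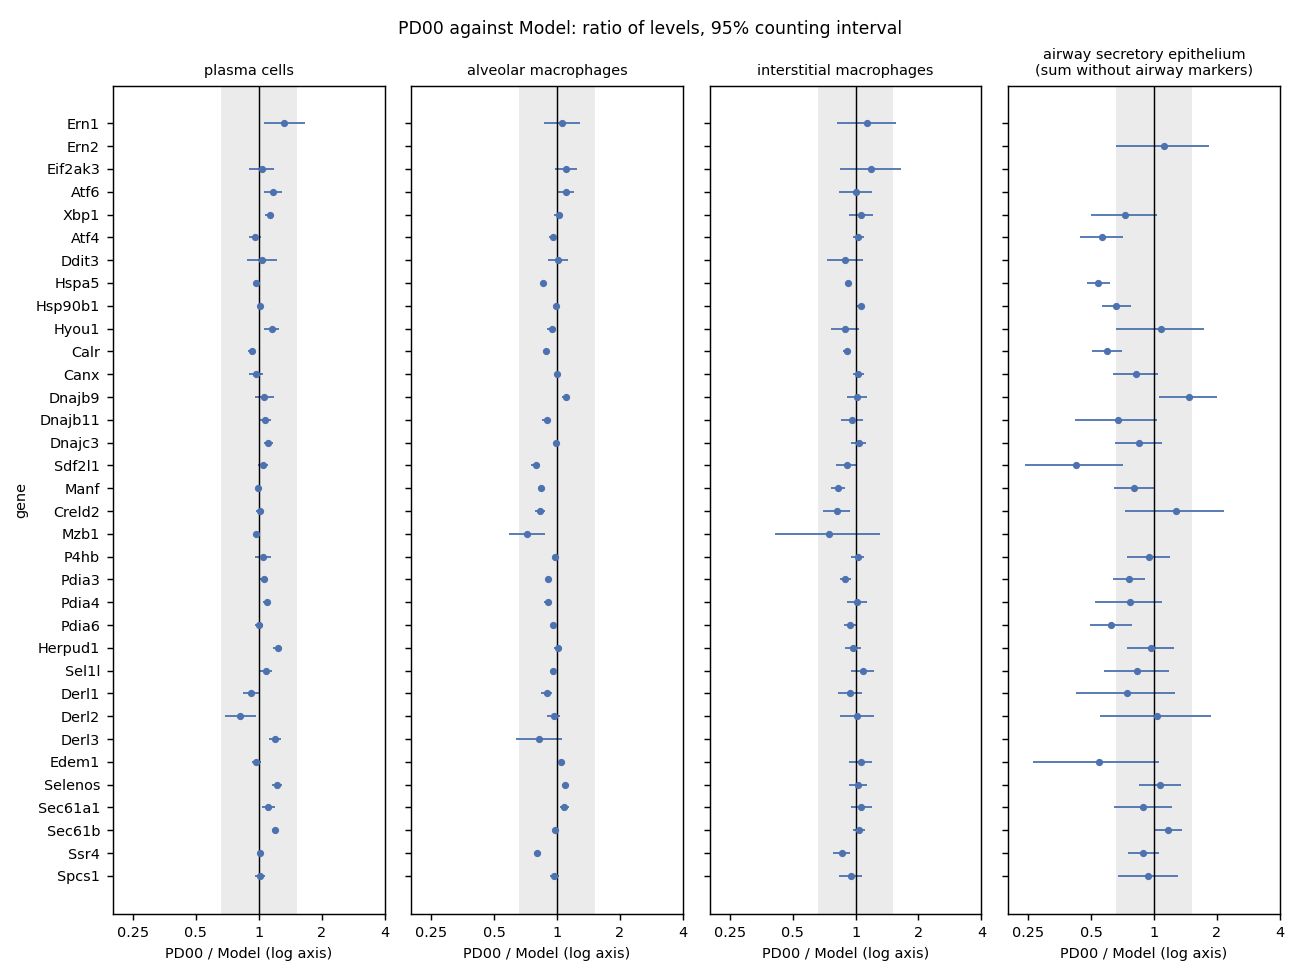
Ratio of levels, PD00 over Model, for members with at least 50 UMIs in plasma cells, alveolar macrophages, interstitial macrophages and airway secretory cells (log axis, 95% counting intervals, grey band within 1.5-fold). The first 3 panels keep every point inside the band; in the airway panel 7 members lie below it, Hspa5 at 0.54 among them.

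PD00 was also set against Control, a comparison that shares its libraries with the other comparisons and so adds no independent view. In alveolar macrophages 16 of 33 members were higher and 0 lower (14.5% and 22% of all genes), with medians of 0.56 and -0.16. In interstitial macrophages 15 of 31 were higher and 1 lower (21.2% and 13.5%), with medians of 0.40 and 0.08. In airway cells without the marker genes 10 of 20 were higher and 0 lower (18% and 26%), with medians of 0.60 and -0.13. The levels in each library stand in the paragraphs above.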

How the data were processed

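The deposited matrices hold raw UMI counts per gene and cell barcode; the submitters' processing notes list mm10, STAR and Cell Ranger 3.1.0, and another release, 5.0.0, stands in the matrices per the file headers. No deposited file used here assigns cells to types. A cell needed 500 UMIs, 200 detected genes and a mitochondrial share no higher than 20%, and cells with a Scrublet score above 0.2 were removed (421 Control, 252 Model and 274 PD00 cells; its own threshold called 421, 0 and 3). Each cell was scored on marker lists holding none of the 34 genes. It was gated where 1 list scored at least 0.15 and 1.5 times the next with at least 2 markers detected. Alveolar macrophages, neutrophils and airway secretory cells needed 1 marker more, and epithelial classes also a marker of all epithelium. Plasma cells needed at least 10% immunoglobulin UMIs, B cells under 10% and all other classes under 2.5%. The scoring rule, these thresholds and the Scrublet limit were set after seeing the data. Leiden clusters (31) were computed without the 34 genes.

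UMIs were summed per class and library and scaled to CPM. A ratio has an exact conditional-binomial (Clopper-Pearson) 95% interval and a level an exact Poisson one; both cover counting error only. The count test edgeR or DESeq2 would give was not run, since 1 library per group leaves no replicate. A gene was measured with at least 50 UMIs over both sums and counted as higher or lower at 1.5-fold; the code was tested on simulated data. The members, gene lists and comparisons were chosen with earlier results of these data known. Named with values were the sensors and factors and, per class, up to 5 members higher and 5 lower whose interval lay farthest from 1, plus the 2 highest and 2 lowest other pathway genes; further members were named after their values were seen. Of 17 alternative settings, 4 were added after seeing the data. Gene positions are from GENCODE M21 and promoters from RefSeq (GRCm38.p6). Software was Python 3.11.15, numpy 2.4.6, scipy 1.17.1, pandas 2.3.3, scanpy 1.11.5, leidenalg 0.10.2 and matplotlib 3.10.9.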

Additional observations from a re-analysis of the deposited data

Results flagged for a closer look

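In 5 genes the ratio between libraries was past 1.5-fold in opposite directions in different classes, with both intervals clear of 1. Eif2ak3 also went both ways in Model against Control, at 1.62 in interstitial macrophages and 0.54 in neutrophils, but the first interval (0.81 to 3.66) held 1. In each case the difference between the classes was not tested, because each group is 1 library, and the 95% intervals cover counting error only. For Model against Control, Atf6 was higher in T cells at 1.79 (1.496 to 2.15; 34.5 against 19.3 CPM) and lower in interstitial macrophages at 0.597 (0.468 to 0.768). Xbp1 was higher in airway secretory cells at 2.53 on the scale without airway marker genes and lower in alveolar macrophages at 0.660 (0.630 to 0.692). Ssr4 was higher in airway secretory cells at 1.80 and lower in monocytes at 0.604 (0.514 to 0.709). Dnajb9 was higher in airway secretory cells at 1.67 (1.04 to 2.79) and lower in endothelium at 0.666 (0.578 to 0.766). For PD00 against Model, Sdf2l1 was higher in fibroblasts at 1.54 (1.09 to 2.19; 41.2 against 26.8 CPM) and lower in airway secretory cells at 0.425 (0.241 to 0.713), on the scale without airway marker genes.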

How the results depend on the processing

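The number of members past the fold depended most on the fold itself and on depth. At 2-fold, the members higher in Model than in Control numbered 9 over all kept cells, 10 in alveolar macrophages, 3 in interstitial macrophages and 5 in neutrophils; those higher in PD00 than in Control numbered 8, 8 and 4 in the first 3 of these, and 8 were lower in PD00 than in Model in airway cells. With cells thinned to 500 UMIs, the counts for Model against Control were 9 over all kept cells, 4 in interstitial macrophages, 5 in neutrophils and 1 in airway cells; for PD00 against Control they were 9 over all kept cells and 3 in interstitial macrophages, and for PD00 against Model 4 in plasma cells and, lower, 1 in airway cells. At least 200 UMIs left 6 higher in neutrophils and 13 in airway cells of Model, and 10 lower in airway cells of PD00. With the mean over cells in place of the sum, 9 were higher over all kept cells of Model, and 1 each in alveolar and interstitial macrophages of PD00 against Model. In the latter, the count was also 1 with a minimum of 1 UMI and with clusters in place of gates. The number lower in airway cells of PD00 against Model was 5 with median-of-ratios scaling and 7 without the airway marker genes, the latter an alternative chosen after seeing the data. The thinned counts and the minimum of 200 UMIs leave fewer genes measured; the cause of the other changes was not tested.

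In airway cells, Model against Control, 5 genes that were past 1.5-fold reversed: Herpud1 to 0.691 and 0.747, Derl1 to 0.797 and 0.862, Derl2 to 0.827 and 0.894, and Sec61b to 0.717 and 0.775, with median-of-ratios scaling and without airway marker genes, and Spcs1 to 0.967 with the former. Selenos, at 1.38 within 1.5-fold, turned to 0.623 and 0.674. Over 17 alternatives the members higher in Model than in Control ranged from 10 to 24 in alveolar macrophages and from 3 to 17 in interstitial macrophages. Of 1450 ratios of single members under the alternatives, 1288 stayed within the interval of the reported value. Of 1194 levels 840 did, and with cells thinned to 500 UMIs 24 of 91 in plasma cells and 110 of 307 in 4 other classes. With immunoglobulin genes taken out of the sum, 2 of 91 levels in plasma cells did, and 307 of 307 in the 4 other classes. The plasma cell levels thus depend on whether immunoglobulin genes are in the sum. No paired analysis was possible because each group is 1 library and the labels give no replicate numbers that pair libraries. Depth limits the low members: neutrophils and the 45 to 90 airway cells per library leave several sensors under 50 UMIs.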

Other observations

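The antibody-secreting cells of Model and PD00 differed in makeup while the members' levels stayed within 1.5-fold. Among gated plasma cells, 30 in Model and 82 in PD00 had Ighm as leading heavy chain, 111 and 69 Igha, and 243 and 176 Ighg1. Hsp90b1, which was lower in the IgM cells of both libraries, stood at 6220 CPM over all Model plasma cells and 6283 CPM over all PD00 plasma cells. Among other genes of the pathway, Txndc5, an isomerase abundant in plasma cells, had a PD00 to Model ratio of 1.38 in plasma cells.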
